A study of Homo sapiens with 2 samples.

Results

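The genes described here are 10 members of the pathway that runs from phosphoinositide 3-kinase (PI3K) through the kinase AKT to the FOXO transcription factors. They were chosen with earlier results of these data known and found by symbol, 1 annotated row each, so they are 10 of 55773 annotated symbols. They are the PI3K subunits PIK3CA, PIK3CB and PIK3R1, the kinases AKT1 and AKT2, the factors FOXO1 and FOXO3, and the described FOXO targets PDK4, TXNIP and TRIB1. RNA-seq was run on NCI-H2030, an established line from a human lung adenocarcinoma, with 1 library of cells treated with miR-494-3p AS and 1 library of cells treated with SC. The labels spell out neither AS nor SC, and give neither dose nor time. Both libraries were made from total RNA of the same line, and the series title names miR-494-3p together with SET, whose protein inhibits PP2A, a phosphatase that can dephosphorylate AKT. With 1 library in each group there was no replicate, so every value below describes these 2 libraries and carries no p-value and no spread between cultures.

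As background, growth factor receptors and RAS recruit PI3K to the membrane, where its catalytic subunits (p110) phosphorylate a lipid while its regulatory subunits (p85 and relatives) hold and stabilise them. The lipid draws AKT to the membrane, where PDPK1 and the mTORC2 complex activate it, and phosphatases oppose both steps. Active AKT phosphorylates FOXO proteins, which are then bound by 14-3-3 proteins and kept out of the nucleus, so FOXO target genes are known to be transcribed when AKT signalling is low. This control acts on proteins, which the libraries do not measure.

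The microRNA named in the treatment label is shown because 6 of the 10 genes carry a match to its seed in the 3' UTR. The sequence is that of RefSeq (GRCh38.p14, chr14:101029681-101029702, plus strand), and the capitals mark the seed, bases 2 to 8.
miR-494-3p: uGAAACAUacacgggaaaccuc

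Each gene's longest 3' UTR in GENCODE 29 was searched on the transcript strand for the 8-base match ATGTTTCA and the 7-base matches ATGTTTC and TGTTTCA. No 8-base match was found in the 10 genes. There were 10 matches of 7 bases, 3 in PIK3CA, 2 each in FOXO1 and FOXO3 and 1 each in PIK3CB, PIK3R1 and PDK4. AKT1, AKT2, TXNIP and TRIB1 had none. For comparison, 27.7% of 10665 measured coding genes, those with a mean of at least 1 TPM, had a match of either length. PIK3CA, PIK3R1 and FOXO1 lie outside these coding genes, as their means were under 1 TPM. The 3' UTRs of the 10 genes had a median length of 3036 bases, against 1209 bases over those coding genes, and a longer sequence holds more matches of any kind. A match is a run of letters and not evidence of binding. One match from each of 5 genes is printed with 10 bases on either side, the match in capitals.
PIK3CA, bases 2857 to 2863 of the 3' UTR: tttaaaaaagATGTTTCtaattggatt
PIK3R1, bases 1859 to 1865: cgttagcatcATGTTTCccatttaggg
FOXO1, bases 974 to 980: ctacttagtgATGTTTCtgactaatct
FOXO3, bases 2376 to 2382: ccctccaatgTGTTTCAactttaaaat
PDK4, bases 577 to 583: tttattcaagTGTTTCAaaattcaaag

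Promoters were searched for the forkhead core TGTTTAC, the motif that FOXO proteins are known to bind, on both strands (GTAAACA in reverse). RefSeq windows of 300 bases, from 250 before to 50 after an annotated start, were at hand for 9 of the 10 genes, 19 windows in all (GRCh38.p14). The core stood in 1 window of PIK3CA and 1 of TXNIP, so in 2 of 19 windows and 2 of 9 genes. Over all promoters, 3.42% of 35116 windows and 4.19% of 27305 genes held it, with fewer windows per gene than the 9 genes had. The window of PDK4 held none of these letters. The windows of TXNIP and PIK3CA are shown because they carry the core, in capitals, and that of PDK4 for comparison, as a FOXO target without it.
TXNIP, chr1:145996530-145996829, minus strand, core starting 124 bases before the start: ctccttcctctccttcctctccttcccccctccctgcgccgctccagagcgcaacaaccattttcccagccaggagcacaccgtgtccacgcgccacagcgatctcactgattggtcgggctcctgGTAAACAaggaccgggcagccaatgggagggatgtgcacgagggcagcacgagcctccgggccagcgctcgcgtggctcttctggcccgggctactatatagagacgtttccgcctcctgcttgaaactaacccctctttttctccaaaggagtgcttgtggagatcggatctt
PIK3CA, chr3:179148107-179148406, plus strand, core starting 149 bases before the start: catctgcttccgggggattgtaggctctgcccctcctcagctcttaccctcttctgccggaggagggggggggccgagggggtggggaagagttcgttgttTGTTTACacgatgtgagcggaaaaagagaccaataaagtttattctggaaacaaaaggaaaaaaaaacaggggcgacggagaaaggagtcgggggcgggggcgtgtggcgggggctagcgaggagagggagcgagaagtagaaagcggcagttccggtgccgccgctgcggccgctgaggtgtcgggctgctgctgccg
PDK4, chr7:95596467-95596766, minus strand: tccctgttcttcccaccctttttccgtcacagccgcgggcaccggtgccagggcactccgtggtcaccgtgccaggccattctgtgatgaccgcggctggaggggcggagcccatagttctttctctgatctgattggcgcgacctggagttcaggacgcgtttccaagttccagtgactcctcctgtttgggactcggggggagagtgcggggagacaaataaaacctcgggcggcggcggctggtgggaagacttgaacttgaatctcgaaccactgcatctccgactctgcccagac

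The libraries were of similar depth. By the definition of FPKM, the ratio of deposited coverage to FPKM gives the aligned bases, 3.54 gigabases in AS and 3.62 gigabases in SC. A gene whose mean over the libraries reached 1 TPM, a level scaled to transcript length and library, is called measured here; over the 13669 measured genes the median log2 ratio of AS over SC was 0.28. Of 12 epithelial and lung markers, 7 were measured, and the list summed to 908 TPM in AS and 1143 TPM in SC. KRT8 stood at 345 TPM in AS and 486 TPM in SC and KRT18 at 479 and 558 TPM, while EPCAM, with 1.84 TPM in AS and 0.604 TPM in SC, went the other way. The lung factor NKX2-1 and the adhesion molecule CDH1 were under 0.1 TPM in both libraries and KRT19 and SFTPC were listed at 0. The 11 matched markers of other cell types summed to 228 TPM in AS and 319 TPM in SC, most of it from CD68, a lysosomal protein (203 and 285 TPM). The others of that list that were measured were COL1A1 (15.8 TPM in AS, 26.3 TPM in SC), COL3A1 (7.23 and 4.32 TPM) and ACTA2 (2.13 and 3.41 TPM). PTPRC and CD3E of leukocytes were listed at 0 in both. SET itself stood at 79.1 TPM in AS and 30.4 TPM in SC.

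The 10 genes differed widely in level. On the TPM scale the order in AS was AKT1, AKT2, TRIB1, TXNIP, PDK4, PIK3CB, FOXO3, FOXO1, PIK3CA and PIK3R1. In SC the same genes stood at both ends, and PIK3CB lay between TRIB1 and TXNIP. Of the 10, 7 were measured by the filter of 1 TPM, and PIK3CA, PIK3R1 and FOXO1 fell under it. FOXO3 passed it through AS alone. On the main scale, log2((AS + 1)/(SC + 1)) of TPM, 3 of the 10 reached a 2-fold higher level in AS, as did 16.5% of all measured genes, and 0 a 2-fold lower one, as did 2.17%. The 3 were PDK4, TXNIP and TRIB1. The same counts, 3 and 0, were found in FPKM, where the shares of all measured genes were 9.37% and 1.64%. The median over the 10 genes was 0.33, against 0.28 over all measured genes. In bulk RNA, a change in the number of cells that hold a transcript cannot be told from a change in the amount per cell.

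**Figure D1:**
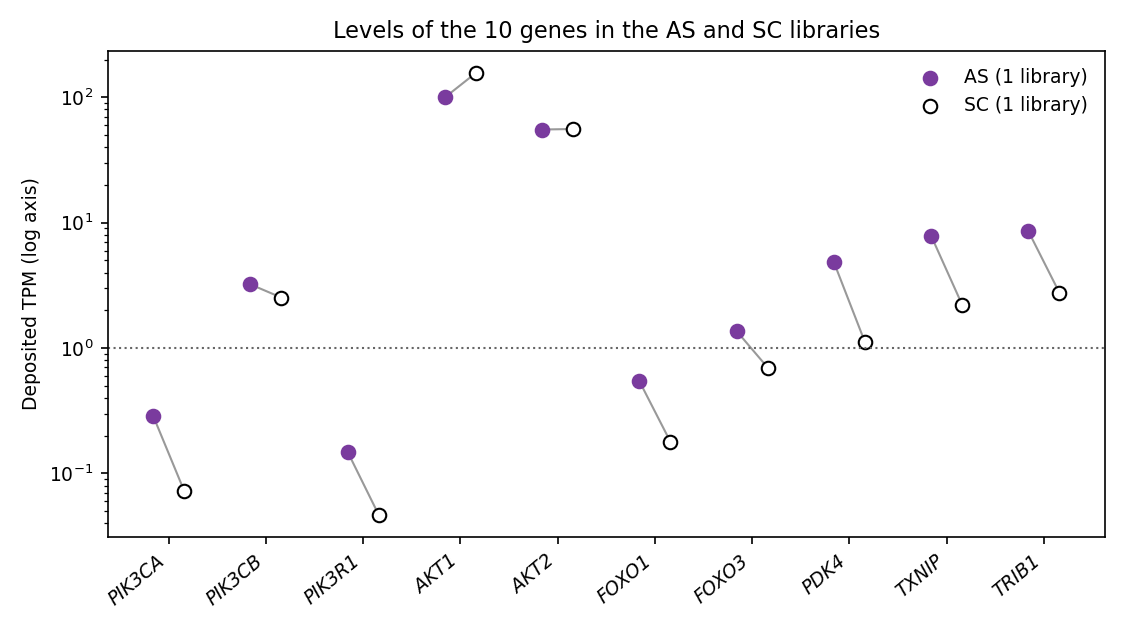
Deposited TPM (log axis) of each gene in the AS library (filled points) and the SC library (open points), 1 library each, joined by a line; the dotted line is 1 TPM. AKT1 and AKT2 lie above the others in both libraries, AKT1 is lower in AS (99.8 against 157 TPM) and the 3 FOXO targets are each higher in AS.

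The pseudocount of 1 hides ratios of genes under about 1 TPM, so a measure closer to the reads was set beside it. Deposited coverage, the mean number of reads over each base of a gene, was divided by the aligned bases of its library and compared with no pseudocount. The counts behind it were estimated as coverage times the summed exon length in GENCODE 29 divided by 150 bases, called read equivalents. The 95% intervals (exact Clopper-Pearson, on the share of both libraries' read equivalents that came from AS) cover counting error only and would be wider if read pairs were counted as 1. Read equivalents assume that coverage over FPKM equals the aligned bases of the library. This failed in at least 1 library for PIK3CA, PIK3R1, AKT1, AKT2, PDK4, TXNIP and TRIB1. In AKT2 it was 0.366 in AS, against 3.54, so for these genes the read equivalents and intervals are rough. On this scale 6 of the 10 reached a 2-fold higher value in AS: PIK3CA, PIK3R1, FOXO1, PDK4, TXNIP and TRIB1. An interval wholly above 0 was found for 6, the same without PIK3R1 and with FOXO3, and an interval wholly below 0 for 1, AKT1. Of measured genes, 45% had an interval above 0 and 24.3% one below 0, and of genes under 1 TPM 16.6% and 2.93%. With 2 reads counted as 1 fragment, an alternative chosen after seeing the data, 5 of the 10 had an interval above 0. Among measured genes, 17.5% reached a 2-fold higher and 2.86% a 2-fold lower value in this measure. Of genes under 1 TPM, 34.1% were 2-fold higher and 14.3% 2-fold lower.

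**Figure D2:**
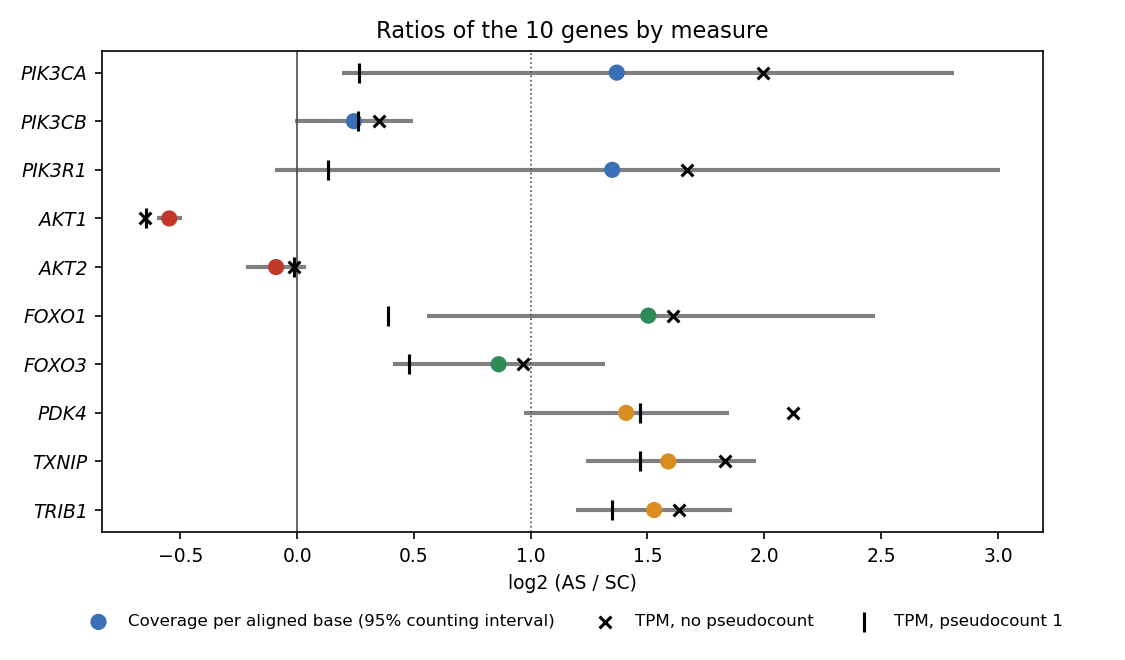
log2 ratio of AS over SC for each gene in 3 measures: coverage per aligned base (coloured points: blue PI3K subunits, red AKT, green FOXO factors, orange FOXO targets) with its 95% counting interval (grey bars), TPM with no pseudocount (crosses) and TPM with a pseudocount of 1 (ticks); the dotted line marks 2-fold. The ticks of PIK3CA, PIK3R1 and FOXO1 lie far left of their points, and the intervals of PIK3CA and PIK3R1 span more than 2 log2 units.

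PIK3CA encodes the catalytic subunit p110-alpha, often mutated in cancer (ENSG00000121879, chromosome 3, 178865902 to 178957881, plus strand, GRCh37). It stood at 0.288 TPM in AS and 0.0724 TPM in SC, with 21 and 8 read equivalents. The log2 ratio in coverage was 1.37 with an interval of 0.19 to 2.81, and 0.26 on the main scale. With 2 reads counted as 1 fragment the interval ran from -0.26 to 3.60 and spanned 0. So few reads fixed neither the size nor, if they came in pairs, the direction. In the assembled loci, the reads of this gene lay in 2 separate pieces in AS and in 4 in SC, and no piece spanned over 32.5% of the gene.

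PIK3R1 encodes the regulatory subunit p85-alpha, which also inhibits p110 until a receptor is engaged (ENSG00000145675, chromosome 5, 67511548 to 67597649, plus strand). It was the least abundant of the 10, at 0.149 TPM in AS and 0.0467 TPM in SC, with 15 and 6 read equivalents. Its log2 ratio in coverage was 1.35 with an interval of -0.09 to 3.01, so a difference was not detectable at this depth.

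PIK3CB encodes p110-beta, the catalytic subunit that also answers to G-protein-coupled receptors (ENSG00000051382, chromosome 3, 138372860 to 138553780, minus strand). It was the most abundant of the 3 subunits, at 3.22 TPM in AS and 2.53 TPM in SC, with 280 and 242 read equivalents. The log2 ratio was 0.24 in coverage, with an interval of -0.01 to 0.50, and 0.26 in TPM. Its 2-fold higher value in the assembled locus that overlapped it most (2.10 TPM in AS, 0.545 TPM in SC) compared pieces of different extent, 30.3% and 41.7% of the gene.

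AKT1, the broadly expressed AKT kinase of growth and survival (ENSG00000142208, chromosome 14, 105235686 to 105262088, minus strand), was the only one of the 10 with an interval wholly below 0. It stood at 99.8 TPM in AS and 157 TPM in SC, or 0.637 times its SC level. The log2 ratio was -0.65 in TPM and -0.55 in coverage, with an interval of -0.60 to -0.49 from 4644 and 6944 read equivalents. The TPM ratio lay outside this interval. Its assembled locus was also lower in AS, with 160 TPM (SC, 204 TPM), or -0.35 on the main scale. No measure reached 2-fold.

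AKT2, the AKT kinase known for its part in insulin response (ENSG00000105221, chromosome 19, 40736224 to 40791443, minus strand), was nearly equal in both libraries, at 55.4 TPM in AS and 55.9 TPM in SC. The log2 ratio in coverage was -0.09, with an interval of -0.22 to 0.04 from 956 and 1042 read equivalents. Its level depended on the measure. Coverage put on the TPM scale gave 5.73 in AS and 5.67 in SC, about 10 times under the TPM, and the cause of this gap was not tested.

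FOXO1 (ENSG00000150907, chromosome 13, 41129804 to 41240734, minus strand) and FOXO3 (ENSG00000118689, chromosome 6, 108881038 to 109005977, plus strand), the transcription factors that AKT excludes from the nucleus, were both low, and both had coverage intervals above 0. FOXO1 stood at 0.545 TPM in AS and 0.179 TPM in SC, with 38 and 14 read equivalents. Its log2 ratio in coverage was 1.504, with an interval of 0.56 to 2.47. FOXO3 stood at 1.37 TPM in AS and 0.699 TPM in SC, with 117 and 66 read equivalents and a log2 ratio of 0.86 (interval 0.41 to 1.32). No assembled locus overlapped FOXO1 in either library. The other family members were not higher. FOXO4 was at 2.93 TPM in AS and 3.03 TPM in SC, and FOXO6 at 3.33 and 6.16 TPM, a log2 ratio of -0.73 on the main scale.

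PDK4, TXNIP and TRIB1 had the largest main ratios of the 10. PDK4 is a mitochondrial kinase that switches off pyruvate dehydrogenase and so spares glucose (ENSG00000004799, chromosome 7, 95212811 to 95225803, minus strand). It stood at 4.86 TPM in AS and 1.12 TPM in SC, 4.35-fold higher with no pseudocount. The coverage was 5.31 reads deep in AS and 2.05 in SC, from 160 and 62 read equivalents, a log2 ratio of 1.41 with an interval of 0.97 to 1.85. The coverage ratio was thus smaller than the log2 ratio of 2.12 in TPM with no pseudocount, and it was 0.98 on the TPM scale with a pseudocount of 1, just under 2-fold.

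TXNIP is an alpha-arrestin that binds thioredoxin and lowers glucose uptake (ENSG00000117289, chromosome 1, 145438469 to 145442635, plus strand in GRCh37). It stood at 7.88 TPM in AS and 2.21 TPM in SC, 3.56-fold higher. Its coverage was 10.5 in AS and 3.58 in SC, and from 254 and 86 read equivalents the log2 ratio was 1.59, with an interval of 1.24 to 1.97. The assembled locus gave 7.88 TPM in AS and 2.80 TPM in SC, also past 2-fold. On the main scale the ratio was under 2-fold at a pseudocount of 5 (0.84) and after subtracting the median of genes of like GC content (0.71).

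TRIB1 is a pseudokinase that brings substrates such as C/EBP-alpha to a ubiquitin ligase (ENSG00000173334, chromosome 8, 126442563 to 126450647, plus strand). It stood at 8.57 TPM in AS and 2.76 TPM in SC, 3.10-fold higher, and its coverage was 10.6 in AS and 3.75 in SC. From 292 and 104 read equivalents the log2 ratio in coverage was 1.53, with an interval of 1.19 to 1.86. The assembled locus spanned the whole gene in both libraries and gave 8.57 TPM in AS and 2.76 TPM in SC, as the gene itself.

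In PIK3CA, PIK3R1 and PDK4 the 2 TPM values were not made alike. In SC their TPM was the coverage times 1 constant, as in 53.4% of all SC rows above 0, whereas in AS it was larger than that constant gives. Of measured genes, 902 shared this state. Their median log2 ratio was 1.06 in TPM and 0.60 in coverage on the TPM scale, and 53.8% of them were at least 2-fold higher in TPM but 20.1% in coverage. FOXO1, FOXO3 and PIK3CB followed the constant in both libraries, like 3349 measured genes, whose medians were 0.28 in both measures. AKT1, AKT2, TXNIP and TRIB1 followed it in neither. Across all measured genes, 9.47% reached a 2-fold higher and 0.863% a 2-fold lower value in coverage on the TPM scale, where TXNIP (1.31) and TRIB1 (1.27) were past 2-fold among the 10.

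The ratios of all genes moved with the GC content of the transcript, and the 10 genes differ widely in it, with PIK3CA at 34.8%, PIK3CB and PDK4 at 39.4%, PIK3R1 at 40.3%, TXNIP at 43.9%, FOXO1 at 46.4%, FOXO3 at 49.1%, TRIB1 at 52.5%, AKT2 at 58.3% and AKT1 at 58.7%. Measured coding genes were divided into 10 equal groups by GC content, and the log2 coverage ratio per aligned base had a median of 0.97 in the lowest decile and of -0.40 in the highest. TRIB1, at 1.53, lay farthest above its own decile, whose median was 0.19 and whose middle 50% ran from -0.14 to 0.51; 4.96% of that decile were 2-fold higher. TXNIP at 1.59 was set against a median of 0.78 and an upper quartile of 1.12. In these 2 genes the whole counting interval lay above the upper quartile of the decile, and with 2 reads counted as 1 fragment in TRIB1 alone. PDK4 at 1.41 was just above the upper quartile of its decile, 1.30, whose median was 0.97, and 47.7% of the genes in that decile were 2-fold higher.

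The same decile held PIK3CA at 1.37, and PIK3CB, which at 0.24 lay below its lower quartile of 0.64. FOXO1 and FOXO3 stood above the upper quartiles of their deciles, 0.95 and 0.77, with intervals that reached below them. AKT1 at -0.55 was under the lower quartile of -0.43 of its decile, and AKT2 at -0.09 was inside the middle 50%. In all, 7 of the 10 genes lay above the upper quartile of their decile, 2 below the lower quartile and 1 between. The deciles hold measured genes, whereas PIK3CA, PIK3R1 and FOXO1 were under 1 TPM, where the median over all genes was 0.51, against 0.24 over measured genes. Of the 7 measured members, 4 lay above the upper quartile. FOXO3 was among these 4 and passed the filter through AS alone (1.37 TPM, against 0.699 TPM in SC). Its place among measured genes was thus partly set by the filter. The part of GC content in the ratio of any single gene was not tested.

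**Figure D3:**
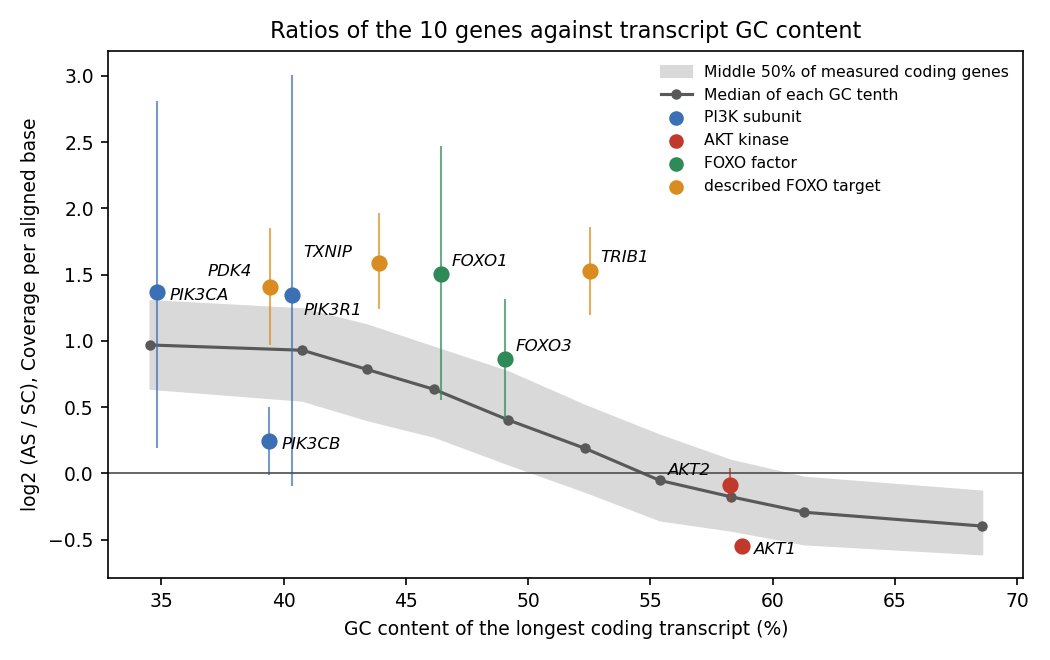
log2 ratio of AS over SC in coverage per aligned base against the GC content (%) of the longest coding transcript, for the 10 genes (points with 95% counting intervals) and for measured coding genes (line, median of each GC decile; grey band, middle 50%). TRIB1 and TXNIP lie above the band with their whole intervals, PIK3CB and AKT1 lie under it and AKT2 lies within it.

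Around PI3K, the other class I subunits showed no common direction. The TPM counts of this and the later lists stand against 16.5% of all measured genes at least 2-fold higher in AS and 2.17% lower. A gene could pass the filter through 1 library alone, so a 2-fold call in it was partly set by the filter. EGFR, INPP4B and STK3 passed through AS alone. Of the 9 genes of class I, 4 were measured, 1 of them (PIK3R3) at least 2-fold higher in AS and none lower, with a median log2 ratio of 0.20. PIK3R3, the regulatory subunit p55-gamma, stood at 7.07 TPM in AS and 1.96 TPM in SC, a log2 ratio of 1.45, and 1.15 in coverage on the TPM scale. PIK3R2, which encodes p85-beta, stood at 59.9 TPM in AS and 79.4 TPM in SC (-0.40) as the sum of 2 rows, and its assembled locus at 30.2 TPM in AS and 40.9 TPM in SC. PIK3CD, the p110-delta known from leukocytes, was at 11.3 and 10.2 TPM (0.14), above PIK3CA and PIK3CB in both libraries. In class II and class III, which make other lipids, 3 of 5 genes were measured and none was past 2-fold in TPM. These were PIK3R4 (log2 ratio 0.95), PIK3C3 (0.43, and -0.03 in coverage on the TPM scale) and PIK3C2B (-0.09).

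Of 13 receptors and adaptors that feed PI3K, 9 were measured, 2 at least 2-fold higher and none lower, with a median of 0.57. The 2 were receptor kinases, MET (26.5 TPM in AS, 3.45 TPM in SC; log2 ratio 2.63) and EGFR (4.61 and 0.599 TPM; 1.81). In coverage on the TPM scale MET stayed past 2-fold at 1.53 and EGFR did not, at 0.40. The insulin branch lay within 2-fold, with INSR at 0.66, its adaptor IRS1 at 0.57 and the related receptor IGF1R at 0.53. IRS2, an adaptor that is also a described FOXO target, was under the filter at 0.804 TPM in AS and 0.371 TPM in SC, with a log2 ratio in coverage of 1.01 (interval 0.42 to 1.63). The remaining measured genes were NRAS (0.76), HRAS (0.07), ERBB2 (0.03) and ERBB3 (-0.79), the last at 0.01 in coverage on the TPM scale.

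Among AKT and the kinases that activate it, 7 of 9 were measured, 1 at least 2-fold higher and none lower, with a median of -0.33. The higher one was MTOR, the kinase of both mTOR complexes, at 22.8 TPM in AS and 10.4 TPM in SC, a log2 ratio of 1.07, and 1.10 in coverage on the TPM scale. MLST8 (-0.45) and PRR5 (-0.33), 2 other mTOR complex subunits, were lower within 2-fold, and MAPKAP1 was higher (0.78). PDPK1, the kinase that phosphorylates the activation loop of AKT, differed in sign between measures, at -0.44 in TPM and 0.47 in coverage on the TPM scale.

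Phosphatases that oppose the pathway had a median log2 ratio of 0.79. Of 12, 10 were measured, 2 at least 2-fold higher and none lower. Their median GC content was 43.2%. The GC decile that holds this value had a median of 0.76 in TPM, with 33.4% of its genes 2-fold higher. PPP2CA, the catalytic subunit of protein phosphatase 2A, was at 34.8 TPM in AS and 14.01 TPM in SC (1.25) and PPP2CB at 31.5 and 15.8 TPM (0.95). The other 2-fold higher gene, INPP4B, a lipid phosphatase, was at 5.04 TPM in AS and 0.0216 TPM in SC, but its coverage on the TPM scale gave 0.03. Others were INPP4A (0.85), PHLPP2 (0.81), PPP2R2A (0.77), PPP2R5C (0.45), INPP5K (0.26) and INPPL1 (-0.11).

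AKT substrates outside FOXO had a median of 0.31, close to that of all genes. Of 11, 10 were measured, and 1, TSC1 of the complex that restrains mTORC1, was at least 2-fold higher (1.18), though at 0.32 in coverage on the TPM scale. None was 2-fold lower. Its partner TSC2 was at 0.19 in TPM and -0.18 in coverage on the TPM scale, and RHEB, the small GTPase they act on, at 0.58. The others were MDM2 (0.70), GSK3B (0.44), TBC1D1 (0.37), RPTOR (0.25), AKT1S1 (0.02), BAD (-0.03) and GSK3A (-0.04).

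Among genes that act on FOXO proteins, all 7 genes of the 14-3-3 family were measured, 2 at least 2-fold higher and none lower, with a median of 0.64. The GC decile that holds the family's median GC content, 45.1%, had a median of 0.66 in TPM. YWHAQ stood at 255 TPM in AS and 115 TPM in SC (1.14) and YWHAG at 40.7 and 18.7 TPM (1.08), and both stayed past 2-fold in coverage on the TPM scale. They were followed by YWHAH (0.76), YWHAB (0.64), YWHAZ (0.57) and YWHAE (0.16), whereas the epithelial member SFN was lower (-0.53). Of 10 other FOXO regulators, 9 were measured, 3 at least 2-fold higher and none lower, with a median of 0.96 in TPM and 0.88 in coverage on the TPM scale. Their median GC content was 43.4%, and the GC decile that holds this value had a median of 0.76 in TPM and 0.62 in coverage on the TPM scale.

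The FOXO regulators past 2-fold were STK3, a Hippo kinase that phosphorylates FOXO (3.44), USP7, a deubiquitinase (34.3 TPM in AS, 5.50 TPM in SC; 2.44) and XPO1, the exportin that carries FOXO out of the nucleus (28.96 and 4.67 TPM; 2.40). In coverage on the TPM scale XPO1 alone of them was past 2-fold (1.37), with USP7 at 0.66 and STK3 at 0.20. The acetyltransferases EP300 (0.98) and CREBBP (0.91), the deacetylase SIRT1 (0.96), STK4 (0.93), SGK1 (0.82), a kinase related to AKT, and SKP2 (0.40) lay within 2-fold.

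Described FOXO targets as a whole, a list of 36 genes drawn from general knowledge that includes PDK4, TXNIP and TRIB1, had 27 measured members. Of these, 7 reached a 2-fold higher and 1 a 2-fold lower level in AS, with a median of 0.66 in TPM. Of the genes past 2-fold, BCL2L11 and KLHL24 passed the filter through AS alone and TNFSF10 through SC alone. Without PDK4, TXNIP and TRIB1, 4 of 24 (16.7%) were 2-fold higher, close to the 16.5% of all measured genes, and the median was 0.53. In coverage on the TPM scale 4 of the 27 were 2-fold higher, against 9.47% of all measured genes, and none lower. Without PDK4, TXNIP and TRIB1 it was 2 of 24. The median of the 27 was 0.44, against 0.25 over all measured genes and 0.37 in the GC decile that holds the list's median, 47.9%. The 4 were TXNIP, TRIB1, CDKN1B and KLF6. CDKN1B, the cell cycle inhibitor p27, stood at 9.20 TPM in AS and 3.68 TPM in SC (log2 ratio 1.12, and 1.08 in coverage). KLF6, a zinc finger factor, stood at 14.1 and 5.91 TPM (1.13, and 1.05 in coverage).

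Other FOXO targets went against these or depended on the measure. BCL2L11, the apoptosis activator BIM, was at 4.43 TPM in AS and 0.327 TPM in SC (2.03), but at 0.32 in coverage on the TPM scale. KLHL24, named after its value was seen, was likewise at 1.09 in TPM and 0.24 in coverage. TNFSF10, the death ligand TRAIL, also named after its value was seen, was the lower one at 0.748 TPM in AS and 2.65 TPM in SC (-1.06), with 0.22 in coverage. CITED2 (0.96) and GADD45A (0.88) were just under 2-fold. The gluconeogenic targets G6PC and PCK1 and the ligand FASLG, as well as CCND2, were listed at 0 in both libraries. Of the 27 measured targets, 21 had a positive and 6 a negative ratio in TPM.

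All 6 pyruvate dehydrogenase kinases and phosphatases were measured, and none was at least 2-fold higher in coverage on the TPM scale. In TPM 4 were at least 2-fold higher, against 16.5% of all measured genes. Besides PDK4 these were PDP1, a phosphatase with the opposite action (7.34 TPM in AS, 1.09 TPM in SC; 1.9996), PDP2 (1.08) and PDK1 (1.07), with 0.99, 0.55 and 0.28 in coverage. PDK3 was at 0.40 and PDK2 lower at -0.38. In the GC deciles of PDK4, of PDK1 and PDP1, and of PDP2, 41.9%, 41.5% and 25.5% of genes were 2-fold higher in TPM. Among alpha-arrestins and thioredoxin, 8 of 9 genes were measured, 2 of them at least 2-fold higher and none lower, with a median of 0.27. TXNRD1, the reductase of thioredoxin, was the other one beside TXNIP, at 212 TPM in AS and 93.5 TPM in SC (1.17). Thioredoxin itself, TXN, was at 334 and 282 TPM (0.25).

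ARRDC4, which like TXNIP is known to answer to glucose through MondoA, was under the filter at 0.624 TPM in AS and 0.233 TPM in SC, with a coverage log2 ratio of 1.32 (interval 0.23 to 2.37). ARRDC3 (0.29), ARRDC2 (0.09) and ARRDC1 (-0.62) were within 2-fold. MLXIP, which encodes MondoA, was at 0.66, and its partner MLX was at 0.00. In the Tribbles list, 6 genes were measured and TRIB1 was the single one past 2-fold, with a list median of 0.12. TRIB3, a relative known as a stress gene that binds AKT, had the opposite sign, at 76.9 TPM in AS and 133 TPM in SC (-0.78), and TRIB2 was at 0.20. The ligase RFWD2 (also called COP1) was at 0.89, and its substrates CEBPB at 0.04 and CEBPA at -0.18.

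**Figure D4:**
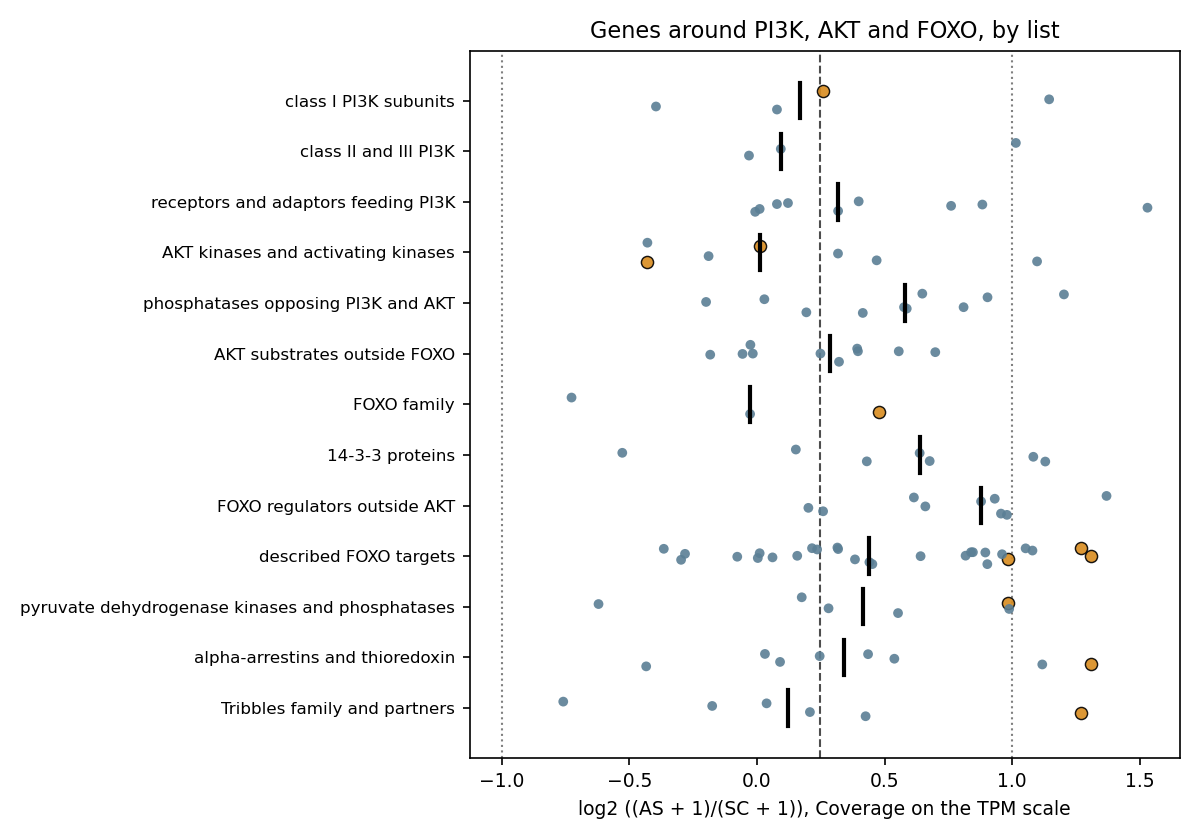
log2((AS + 1)/(SC + 1)) in coverage on the TPM scale for the measured genes of 13 lists around the pathway (points). Orange points with a black edge are those of the 10 genes that were measured, so without PIK3CA, PIK3R1 and FOXO1. Vertical offsets within a row are for display. Also shown are the median of each list (black bar), the median of all measured genes (dashed line, 0.25) and 2-fold (dotted lines). TXNIP and TRIB1 are at the right end of their rows, and AKT1 is at the left of its row.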

How the data were processed

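Total RNA of 2 NCI-H2030 samples was made into directional libraries, per the labels' protocols. Per the file headers, the authors deposited coverage, FPKM and TPM for annotated genes and for loci assembled from the reads. Nothing names the aligner or the quantification program in the sources used here. The submitters' processing notes name GRCh38 and hg38, but 285 of 50926 gene coordinates matched GRCh38; the tables' coordinates are those of GRCh37. GENCODE 29 and RefSeq were used by gene identifier or symbol only: 9 members matched by identifier and TXNIP by symbol.

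Rows of 1 symbol were summed. The main scale was log2((AS + 1)/(SC + 1)) of TPM, with no test since each group had 1 library. Coverage on the TPM scale was coverage divided by the coverage per FPKM (3.54 in AS, 3.62 in SC) times the TPM per FPKM (2.13 and 1.98). A read length of 150 bases was the most frequent product of coverage and length among single-exon genes of few reads (31 of 520 genes in AS, 33 of 484 in SC). A gene followed the coverage constant within a tolerance of 1%. The named genes were all 10 members, each measured gene of lists with at most 10 others, the 4 largest ratios of the longer list among genes with at least 5 TPM in 1 library, and MTOR, CDKN1B, IRS2, BCL2L11, FOXO4 and SET; some genes the rule names are not reported here. The members and lists were chosen with earlier results of these data known. With 2 libraries, no measure of likeness between gene patterns was possible. COP1 and PECAM1 had no row by that symbol. Python 3.11.15, pandas 2.3.3 and SciPy 1.17.1 were used. The log2 ratio and the 2-fold calls were tested on simulated data, but the read equivalents, counting intervals and GC deciles were not. Alternatives were other pseudocounts, measures, scalings and filters.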

Additional observations from a re-analysis of the deposited data

How the results depend on the processing

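The count of genes at least 2-fold higher in AS was 3 of 10 in TPM, in FPKM, after subtracting the median of all genes and after rescaling without the mitochondrial genome, and 2 in coverage on the TPM scale. It was 5 with a pseudocount of 0.1, 0 with a pseudocount of 5, 5 of 9 in the assembled loci, and, in alternatives chosen after seeing the data, 6 in coverage per aligned base with no pseudocount and 1 (TRIB1) after subtracting the median of the GC decile. The count of 2-fold lower genes was 0 in each. Shares of all genes past 2-fold were not computed for the other pseudocounts, the rescalings, the assembled loci or the GC decile. The counts in those settings therefore have no background beside them. The median of the 10 genes was 0.33 in TPM and 0.32 in coverage on the TPM scale. It was 1.02 at a pseudocount of 0.1, 0.11 at 5, 0.17 in FPKM, 1.00 in the assembled loci, 0.045 after subtracting the median of all genes, 1.36 in coverage per aligned base and -0.11 after subtracting the GC decile. The median in the assembled loci was the value of PIK3CB, whose pieces differed in extent. The locus also spanned unlike parts of PDK4 (100% in AS, 17.0% in SC), PIK3CA (32.5% and 6.67%) and FOXO3 (3.95% and 63.9%). FOXO3, PDK4, TXNIP and TRIB1 were higher and AKT1 lower in AS in all 9 alternatives, though FOXO3 by only 0.037 after subtracting the GC decile. PDK4 was past 2-fold in 6 of them, TXNIP in 7 and TRIB1 in 8. The 6 of PDK4 include the assembled locus. Among all genes, the 2-fold higher share was 14.1% from a mean of 5 TPM and 9.55% with no filter. No paired analysis was possible because each group had 1 library. With 2 reads counted as 1 fragment, counting intervals lay above 0 in 5 genes in place of 6, without PIK3CA, and below 0 in 1 either way. The few reads of PIK3CA, PIK3R1 and FOXO1 limit what can be said of them.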
